A study of Mus musculus with 6 samples.

Results

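Molecular chaperones are proteins that hold, fold or refold other proteins, and 40 genes of this kind were compared between Gli1+ and Gli1- cartilage cells. They were taken by gene symbol from a list in 2 groups. The first group holds 14 heat shock genes whose products work in the cytosol or in mitochondria. The second holds 26 genes that serve protein folding in the endoplasmic reticulum (ER) or the signalling that follows when folding fails there. All 40 were found among the 54532 genes of the count table, and all 40 passed the filter on low counts, which kept 14801 genes. Ddit3 has a second row of 105 bases with 0 counts in every library, which was not tested.

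The libraries came from Gli1-CreERT2; tdTomato mice on a c57BL/6 background, in which tamoxifen (TAM) lets a Cre recombinase driven by Gli1 switch on the red protein tdTomato in Gli1-expressing cells for good. The mice were 1 month old, and cells were taken 24 h after TAM. Cartilage was digested with enzymes, cells carrying CD45, CD31 or Ter119 were sorted away, and the remainder was split into tdTomato+ cells (called Gli1+) and tdTomato- cells (called Gli1-), with 3 libraries of each. Both came from the same mice, so they carried the same alleles and had the same TAM, digestion and sort. The tdTomato- population is a mixture of whatever the gate left, including any Gli1-expressing cell in which recombination had not taken place. The labels name the growth plate as the tissue and the study's text names costal cartilage. The question put to these genes was whether the progenitors and the remaining cells differ in their folding and stress programmes.

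When proteins unfold in the cytosol, the transcription factor HSF1 is released, binds heat shock elements in promoters and raises the HSP70, HSP40 and small heat shock proteins. In the ER the unfolded protein response is started by the sensors IRE1 (encoded by Ern1), PERK (Eif2ak3) and ATF6, which raise ER chaperones, slow translation and clear misfolded proteins by ER-associated degradation. Chondrocytes secrete large amounts of collagen and proteoglycan, and their ER folding machinery is known to be highly expressed.

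Promoter sequences are shown first, because the 2 groups are defined by 2 signalling systems with different DNA elements. RefSeq (GRCm38.p6) promoters were matched by symbol for 33 of the 40 genes, 10 heat shock and 23 ER genes, and the 250 bases before each start were searched on both strands. The heat shock element was written as GAANNTTC or TTCNNGAA, 2 inverted units that may overlap in longer runs. It was found in 7 of the 10 heat shock genes (70.0%) and in 1 of the 23 ER genes (4.35%), against 14.5% of 27025 genes with a promoter. A run of at least 3 alternating units occurred in the heat shock genes Hspd1 and Hspe1 alone among the 33, and in 0.514% of all genes. The stretches below have the matches in capitals and belong to the genes with the largest differences between populations (Hspa1b, Hspa1a, Hspb1), to the chaperonin pair that shares 1 run, and to the sole ER gene with a match.
Hspa1b (chr17:34959324-34959353, minus strand): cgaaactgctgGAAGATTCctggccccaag
Hspa1a (chr17:34972242-34972271, minus strand): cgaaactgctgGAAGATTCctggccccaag
Hspb1 (chr5:135887801-135887830, plus strand): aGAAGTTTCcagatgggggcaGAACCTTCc
Hspd1 (chr1:55088053-55088082, minus strand): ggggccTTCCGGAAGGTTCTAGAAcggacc
Hspe1 (chr1:55088053-55088082, plus strand): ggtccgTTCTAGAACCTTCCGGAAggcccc
Eif2ak3 (chr6:70844291-70844320, plus strand): ggaccaatccgTTCCAGAAgtggcattagg

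The ER stress element, written as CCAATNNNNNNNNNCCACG, was found in 8 of the 23 ER genes (34.8%), in 0 of the 10 heat shock genes and in 0.13% of all genes with a promoter. The 8 were Calr, Canx, Creld2, Dnajc3, Hsp90b1, Hspa5, Pdia6 and Syvn1. Its shorter second form, ER stress element II, was found in Herpud1 and in 0.037% of all genes. Shown are the ER gene with the highest level, a partner of it, the lectin chaperone that was higher in Gli1+ cells in each pair, and the carrier of the second form.
Hspa5 (chr2:34772020-34772048, plus strand): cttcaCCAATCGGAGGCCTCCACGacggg
Dnajc3 (chr14:118937822-118937850, plus strand): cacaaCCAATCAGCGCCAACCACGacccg
Canx (chr11:50325795-50325823, minus strand): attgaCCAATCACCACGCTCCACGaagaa
Herpud1 (chr8:94386368-94386396, plus strand): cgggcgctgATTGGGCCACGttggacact
A match is a run of letters and does not show that a factor binds there.

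Library totals lay between 17114101 and 18602482 counts. Gli1+ replicate 1 stood apart, with 15000 genes holding a count against 20666 to 23360 in the other libraries. Gli1 itself had 86, 104 and 152 counts in Gli1+ replicates 1, 2 and 3 and 14, 19 and 46 in the Gli1- replicates, so the populations did not overlap and Gli1 was highest where the labels place it. Summed chondrocyte markers reached 9096 to 25789 CPM (counts scaled to a common library size) in Gli1+ and 7833 to 33682 CPM in Gli1- libraries, and 0 of the 12 markers was at 0 throughout. Summed macrophage markers were at 69.9 to 338 CPM in Gli1+ and 344 to 1062 CPM in Gli1- libraries, and neutrophil markers reached 2875 CPM in Gli1- replicate 1 against 8.51 to 70.7 CPM elsewhere. Across genes, the replicate 2 libraries of both populations moved together most clearly (correlation 0.72), and those of replicate 3 less so (0.471). Gli1+ replicate 1 followed Gli1- replicate 3 (0.274) about as closely as Gli1- replicate 1 (0.223), so the pairing of numbers 1 and 3 is not settled. The numbers were nonetheless taken to pair the libraries, and statements by pair rest on this choice. Results are also given with the replicate number as a block in the fit, which rests on it too. In bulk RNA, fewer cells of a type and less RNA per cell cannot be told apart.

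The heat shock genes were mostly lower in Gli1+ cells, and a few of them by a wide margin, while the ER genes showed no common direction. Of the 14 heat shock genes 13 had a negative log2 fold change (log2FC, Gli1+ over Gli1-), with a median of -0.30 (-0.69 to -0.20 with libraries left out). Of the 26 ER genes 13 did, with a median of -0.01 (-0.24 to 0.36 with libraries left out). Over all 14801 genes 49.9% were negative and the median was 0.00. In edgeR's quasi-likelihood test without a block, no member passed an adjusted p under 0.05 with a |log2FC| over 1 (0.0% of all genes did), and the adjusted p was 0.9999 for each of the 40. At an unadjusted p under 0.05, 1 heat shock gene (Bag3, lower) and 0 ER genes passed, where 3.47% of all genes did in either direction and 2.04% in the lower one. DESeq2 without a block called 0 members too, with 2 heat shock genes at an unadjusted p under 0.05.

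With the replicate block the heat shock genes separated further from zero. By edgeR 5 of 14 had an unadjusted p under 0.05 and all 5 were lower (background 5.25%), while 1 of 26 ER genes was lower and 2 were higher (background 3.36% for higher), and the smallest adjusted p among members was 0.35. DESeq2 with the same block called Hspa1b, Hspa1a, Hspb1, Dnajb1 and Bag3 lower in Gli1+ cells, 5 of 14 heat shock genes where 2.05% of all genes were called lower. It called 0 ER genes, where 0.75% of all genes were called higher. With both libraries of replicate 1, 2 or 3 left out, DESeq2 with the block called 4, 3 and 2 heat shock genes lower, where 3.27%, 0.941% and 0.414% of all genes were, and Hspb1 and Hspa1a were among them each time. These fits called 781, 174 and 70 genes in all. They share libraries, leave few libraries to measure the spread and were added after the data were seen, so they are not independent repeats.

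**Figure D1:**
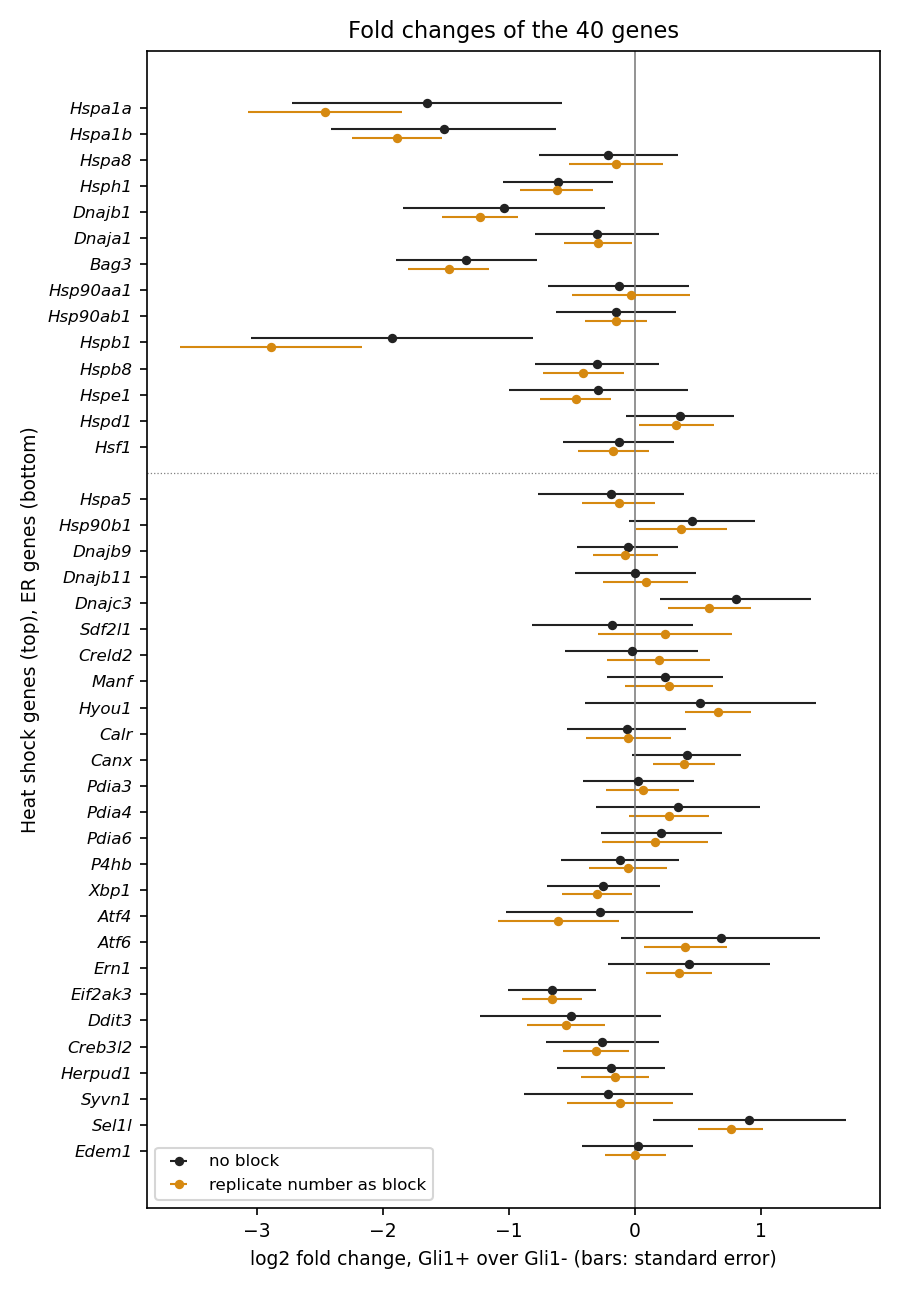
Log2 fold change of each of the 40 genes (Gli1+ over Gli1-, horizontal axis, log2 units), heat shock genes above the dotted line and ER genes below it. Points are edgeR estimates and bars their standard errors, in black without a block and in orange with the replicate number as a block. Hspa1a, Hspa1b, Hspb1, Dnajb1 and Bag3 lie at -1.04 or lower, and the ER genes lie between -0.66 and 0.91 without the block.

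HSP70 proteins bind exposed hydrophobic stretches and release them on ATP hydrolysis. Hspa1b (chr17:34956436-34959238) and Hspa1a (chr17:34969190-34972156) are the stress-inducible cytosolic HSP70 genes, single-exon neighbours 9951 bases apart. Hspa1b was at 813, 6985 and 1909 CPM in Gli1+ replicates 1, 2 and 3 and at 4872, 15709 and 7211 CPM in the Gli1- replicates (3236 ± 3293 and 9264 ± 5703 CPM, mean ± SD, n = 3). Hspa1a was at 119, 2972 and 627 CPM against 1957, 6781 and 2934 CPM. Both were lower in the Gli1+ library of each pair, and both overlapped between populations through Gli1+ replicate 2. That library was above Gli1- replicate 1 for both genes, and for Hspa1a also above Gli1- replicate 3. The Gli1- level was 6.00, 2.25 and 3.78 times the Gli1+ level of Hspa1b in pairs 1, 2 and 3, and 16.5, 2.28 and 4.68 times that of Hspa1a.

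For Hspa1b the log2FC was -1.52 (SE 0.89, edgeR unadjusted p = 0.126) without the block and -1.89 (SE 0.36, unadjusted p = 0.00246, adjusted p = 0.35) with it, and DESeq2 with the block gave an adjusted p of 9.99e-05. For Hspa1a it was -1.65 (SE 1.07, edgeR unadjusted p = 0.16) without and -2.46 (SE 0.61, unadjusted p = 0.0083, adjusted p = 0.408) with the block, and DESeq2 with the block gave an adjusted p of 0.000338. The exact permutation test of the CPM values, 2-sided, gave 0.2 for Hspa1b and 0.3 for Hspa1a, where 3 against 3 libraries allow no less than 0.1. The size of both differences depended on single libraries. Without Gli1+ replicate 1 the log2FC was -1.07 for Hspa1b and -1.13 for Hspa1a, without Gli1+ replicate 2 it was -2.77 and -3.38, and without Gli1- replicate 2 it was -0.93 and -1.01.

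The paralogs are hard to separate by short reads. Of the 100-base windows of the Hspa1a transcript 47.1% occurred unchanged in Hspa1b, and 49.9% the other way round, so the split of counts between them is uncertain. The ratio of Hspa1b to Hspa1a counts was 2.32 to 3.05 in 5 libraries and 6.84 in Gli1+ replicate 1. Their promoter stretches shown above are letter for letter the same.

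Hspa8 encodes the constitutive cytosolic HSP70, and it did not follow the inducible pair. It was at 4071, 2620 and 2701 CPM in Gli1+ and 2929, 5420 and 2491 CPM in Gli1- libraries, with a log2FC of -0.21 (SE 0.55), and its Gli1+ library was the higher one in 2 of 3 pairs. Per length, in TPM (counts divided by gene length and scaled to a common total), Hspa1b exceeded Hspa8 by 2.55, 4.45 and 4.44 times in the Gli1- replicates. In the Gli1+ replicates the TPM ratio was 0.306, 4.09 and 1.08, so the constitutive gene was the more abundant one in Gli1+ replicate 1 and both were at about the same level in Gli1+ replicate 3.

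**Figure D2:**
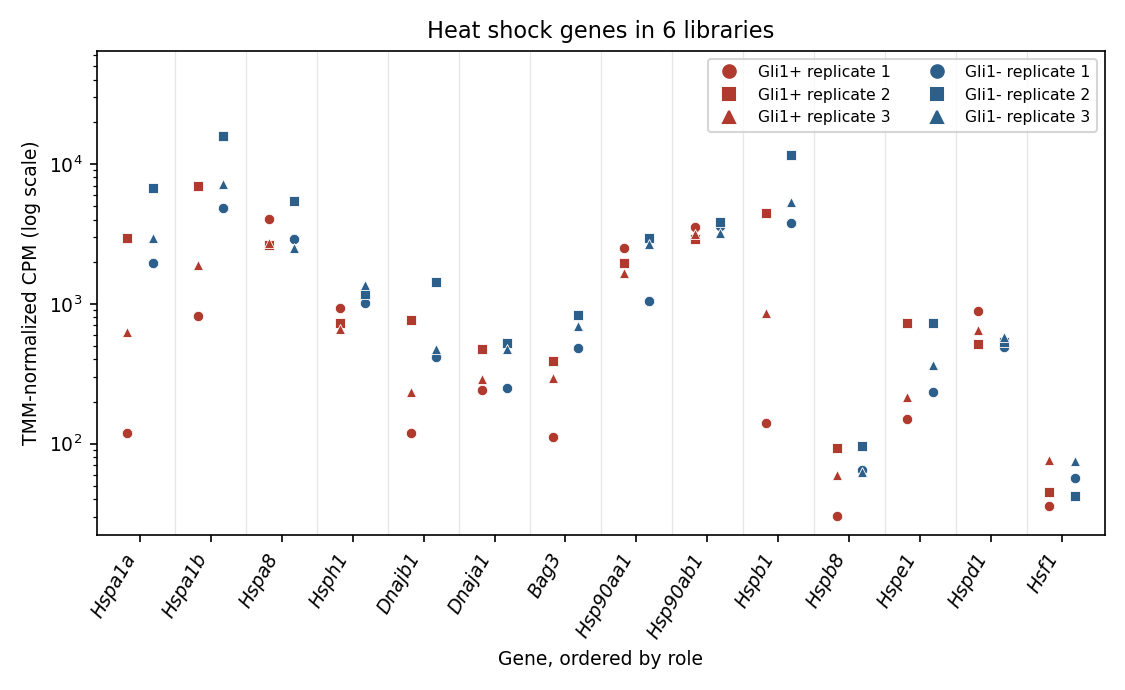
TMM-normalized CPM (vertical axis, log scale) of the 14 heat shock genes, ordered by role, in the 3 Gli1+ libraries (red) and the 3 Gli1- libraries (blue), with a marker shape for each replicate number. Hspa1a, Hspa1b, Dnajb1 and Hspb1 span 12.0 to 82.5-fold over the 6 libraries, with Gli1+ replicate 1 lowest and Gli1- replicate 2 highest, and Hsp90ab1 spans 1.32-fold.

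The helpers of HSP70 were split. Dnajb1 (chr8:83608193-83612653) encodes an inducible HSP40 that hands clients to HSP70, and was at 120, 771 and 235 CPM in Gli1+ and 417, 1429 and 474 CPM in Gli1- libraries. It was lower in the Gli1+ library of each pair, and Gli1+ replicate 2 was above 2 of the Gli1- libraries. Its log2FC was -1.04 (SE 0.80, edgeR unadjusted p = 0.228; exact permutation p = 0.4) without the block and -1.23 (SE 0.30, unadjusted p = 0.00792, adjusted p = 0.402) with it, and the adjusted p from DESeq2 with the block was 0.0134. Without Gli1+ replicate 2 the log2FC was -2.13, and without Gli1- replicate 2 it was -0.28.

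Bag3 (chr7:128523616-128546981) encodes a nucleotide exchange factor that links HSP70 and small heat shock proteins to autophagy. It was at 111, 392 and 294 CPM in Gli1+ and 485, 828 and 699 CPM in Gli1- libraries, and the populations did not overlap. The log2FC was -1.34 (SE 0.56, edgeR unadjusted p = 0.0444; exact permutation p = 0.1, the smallest possible) and -1.48 with the block (SE 0.32, unadjusted p = 0.00451, adjusted p = 0.381), and DESeq2 with the block gave an adjusted p of 0.00244. Without Gli1+ replicate 1 the log2FC was -0.98. The unadjusted p of Bag3 was no longer under 0.05 when any library other than Gli1+ replicate 2 was left out.

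Hsph1 (chr5:149614287-149636376), an HSP110 that recharges HSP70 with ATP, was the other heat shock gene whose libraries did not overlap. It was at 934, 730 and 665 CPM in Gli1+ and 1017, 1184 and 1354 CPM in Gli1- libraries. Its log2FC was -0.61 (SE 0.44, edgeR unadjusted p = 0.201; exact permutation p = 0.1) and -0.62 with the block (SE 0.29, unadjusted p = 0.0832, adjusted p = 0.641). In all, 2 of 14 heat shock genes and 1 of 26 ER genes had every Gli1+ library below every Gli1- library, against 4.45% of all genes, and 0 members had the opposite order, against 4.04%. Dnaja1, a constitutive HSP40, was at 242 to 478 CPM in Gli1+ and 251 to 523 CPM in Gli1- libraries (log2FC -0.30, SE 0.49), and was lower in each pair.

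HSP90 proteins mature kinases and steroid receptors. Hsp90ab1 (chr17:45567775-45573271), the constitutive form, was at 3532, 2928 and 3150 CPM in Gli1+ and 3581, 3871 and 3186 CPM in Gli1- libraries, the narrowest range of any heat shock gene. Its log2FC was -0.15 (SE 0.48, edgeR unadjusted p = 0.765; exact permutation p = 0.2) and -0.15 with the block (SE 0.25, unadjusted p = 0.583, adjusted p = 0.862). Hsp90aa1, the inducible form, was at 1647 to 2500 CPM in Gli1+ and 1046 to 2966 CPM in Gli1- libraries (log2FC -0.13, SE 0.56). The transcripts of both HSP90 genes shared 0.0% of their 100-base windows.

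Small heat shock proteins keep unfolded clients soluble without using ATP. Hspb1 (chr5:135887919-135889563) encodes HSP27 and had the largest difference of the 40 genes. It was at 141, 4473 and 866 CPM in Gli1+ and 3812, 11658 and 5369 CPM in Gli1- libraries (1827 ± 2320 and 6946 ± 4154 CPM, mean ± SD, n = 3). The Gli1- level was 27.0, 2.61 and 6.20 times the Gli1+ level in pairs 1, 2 and 3, and the populations overlapped through Gli1+ replicate 2. The log2FC was -1.93 (SE 1.12, edgeR unadjusted p = 0.122; exact permutation p = 0.2) without the block and -2.89 (SE 0.72, unadjusted p = 0.00838, adjusted p = 0.408) with it, and DESeq2 with the block gave an adjusted p of 8.12e-05. Without Gli1+ replicate 1 the log2FC was -1.39, and without Gli1+ replicate 2 it was -3.79.

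Hspb8, which works with BAG3, was at 30.2, 92.4 and 59.3 CPM in Gli1+ and 64.7, 96.0 and 62.5 CPM in Gli1- libraries (log2FC -0.30, SE 0.49). It was lower in each pair, by 1.05-fold or less in pairs 2 and 3. Of the small heat shock genes outside the 40, DESeq2 with the block called Hspb6, Cryab and Hspb7 lower, and these were singled out after their values were seen. Hspb6 was at 4.29, 20.3 and 4.73 CPM in Gli1+ and 40.2, 139 and 39.4 CPM in Gli1- libraries, so its populations did not overlap (log2FC -2.90, SE 0.82, edgeR unadjusted p = 0.00756, edgeR adjusted p = 0.9999, DESeq2 with block adjusted p = 2.83e-14). Cryab, alpha-B-crystallin, was at 15.2, 202 and 33.1 CPM against 68.7, 465 and 81.9 CPM, with overlapping populations (log2FC -1.30, SE 1.08, edgeR unadjusted p = 0.262). Hspb7 had a log2FC of -1.63 (SE 0.97, edgeR unadjusted p = 0.13). Hspb11, outside the 40 as well, went the other way (log2FC 0.80, SE 1.05, edgeR unadjusted p = 0.465).

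Hspd1 and Hspe1 encode HSP60 and HSP10, which form the folding chamber of mitochondria, and they start from opposite strands of the same stretch of chromosome 1 with the run of 3 overlapping matches shown above. Hspd1 was the 1 heat shock gene with a positive log2FC (0.36, SE 0.43), at 889, 514 and 654 CPM in Gli1+ and 489, 535 and 579 CPM in Gli1- libraries. Hspe1 was at 149, 726 and 217 CPM against 236, 733 and 363 CPM (log2FC -0.29, SE 0.71, -1.28 on leaving out Gli1+ replicate 2 and 0.26 on leaving out Gli1- replicate 2). The TPM ratio of Hspe1 to Hspd1 was 0.30, 2.53 and 0.595 in Gli1+ and 0.866, 2.45 and 1.12 in Gli1- libraries, highest in replicate 2 of both populations. Their gene models overlap by 112 bases on opposite strands, and the use of strand in counting is not given in the sources used here. Hsf1, the transcription factor itself, was at 35.9 to 77.0 CPM in Gli1+ and 42.1 to 74.7 CPM in Gli1- libraries (log2FC -0.13, SE 0.44).

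Read by pairs, 10 of the 14 heat shock genes (71.4%) were lower in the Gli1+ library of all 3 pairs, where 19.8% of all genes were, and 0 were higher in all 3. Some were near ties, such as Hsp90ab1 (Gli1- over Gli1+ 1.01 in pairs 1 and 3) and Hspe1 (1.01 in pair 2). Hspa1a and Hspa1b, whose reads are hard to separate, count as 2 of the 10. By library, 9 of the 14 had their lowest value in Gli1+ replicate 1 and 11 their highest in Gli1- replicate 2. No share over all genes is given for these counts by library. The 14 genes together held 1.42%, 2.30% and 1.41% of all counts in Gli1+ and 2.39%, 4.20% and 3.09% in Gli1- libraries. Hspa1a, Hspa1b and Hspb1 alone held 0.112%, 1.29% and 0.358% in Gli1+ and 1.20%, 2.77% and 1.71% in Gli1- libraries. In each pair both shares were lower in Gli1+ cells. By counts, Hspa1b was among the 9 most abundant of all genes in 4 libraries and ranked 123rd in Gli1+ replicate 1, where Hspb1 ranked 1443rd.

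The lower heat shock levels went with other values. Immediate early genes, which respond within minutes to signals and to tissue dissociation, summed to 3563, 13944 and 9213 CPM in Gli1+ and 10135, 18433 and 12610 CPM in Gli1- libraries, lower in Gli1+ cells in each pair, as the heat shock share was. Of the 21 genes 19 had a negative log2FC, with a median of -0.99 that was -0.54 without Gli1+ replicate 1, and 13 were lower in all 3 pairs. In edgeR without the block 0 of the 21 reached an unadjusted p under 0.05, and DESeq2 with the block called 6 lower. Jun, an AP-1 subunit, was at 205, 1575 and 671 CPM against 764, 4191 and 1722 CPM, Cyr61 at 1478, 3595 and 2753 CPM against 1589, 1738 and 1536 CPM, and Egr1 at 396, 1139 and 1096 CPM against 1371, 1102 and 1931 CPM. The macrophage markers given above were lower in Gli1+ cells as well (4 of 4 tested, summed levels not overlapping). So were the endothelial markers, which summed to 2.96, 2.03 and 2.73 CPM in Gli1+ and 13.0, 5.24 and 3.33 CPM in Gli1- libraries. These levels are low, and only 2 of the 5 endothelial markers passed the filter. Fibroblast or perichondrium markers summed to 3031, 4189 and 1831 CPM against 2249, 10208 and 2601 CPM. Of these markers 1 of 8 was higher in Gli1+ cells, and the sums of pair 1 were in the opposite order. Their sum was highest in Gli1- replicate 2, as were 11 of the 14 heat shock genes. So were the immediate early sum and the chondrocyte, lymphocyte and erythroid sums (33682, 40.1 and 19.1 CPM). Of 4 lymphocyte markers tested 3 were higher in Gli1+ cells, with sums of 2.91, 30.8 and 10.6 against 19.4, 40.1 and 15.0 CPM. Neutrophil markers were lower in 5 of 5 tested, but their sums of 17.7, 70.7 and 8.51 CPM against 2875, 35.1 and 13.0 CPM were in the opposite order in pair 2, and the difference rested on Gli1- replicate 1. The part of these genes, of those markers and of the few genes detected in Gli1+ replicate 1 in the heat shock result was not tested.

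The mean levels of the ER genes ran from 55.9 TPM for Eif2ak3 to 5562 TPM for Hspa5. The replicate number took the largest part of the spread for 19 of the 26, and for 10217 of all 14801 genes. It has more levels than the population, which gives it more room to take spread. With 1 library left out at a time, the sign of the log2FC turned at least once for 20 of the 26 ER genes and for 5 of the 14 heat shock genes (Hspa8, Hsp90aa1, Hspe1, Hspb8 and Hsf1). The share of all genes whose sign turned is not given here, so these counts have no background. Among the ER genes Hspa5 (chr2:34771970-34777547), the ER HSP70 also known as BiP, was the most abundant per length, followed by Atf4 at 1753 and Calr at 1016 TPM. By counts Hspa5 ranked 2nd to 17th of all genes in the 6 libraries. It was at 8258, 5135 and 6182 CPM in Gli1+ and 10882, 6868 and 4601 CPM in Gli1- libraries, with overlapping populations and the Gli1+ library higher in 1 of 3 pairs. Its log2FC was -0.19 (SE 0.58, edgeR unadjusted p = 0.75; exact permutation p = 0.7) and -0.13 with the block (SE 0.29, unadjusted p = 0.668, adjusted p = 0.896).

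**Figure D3:**
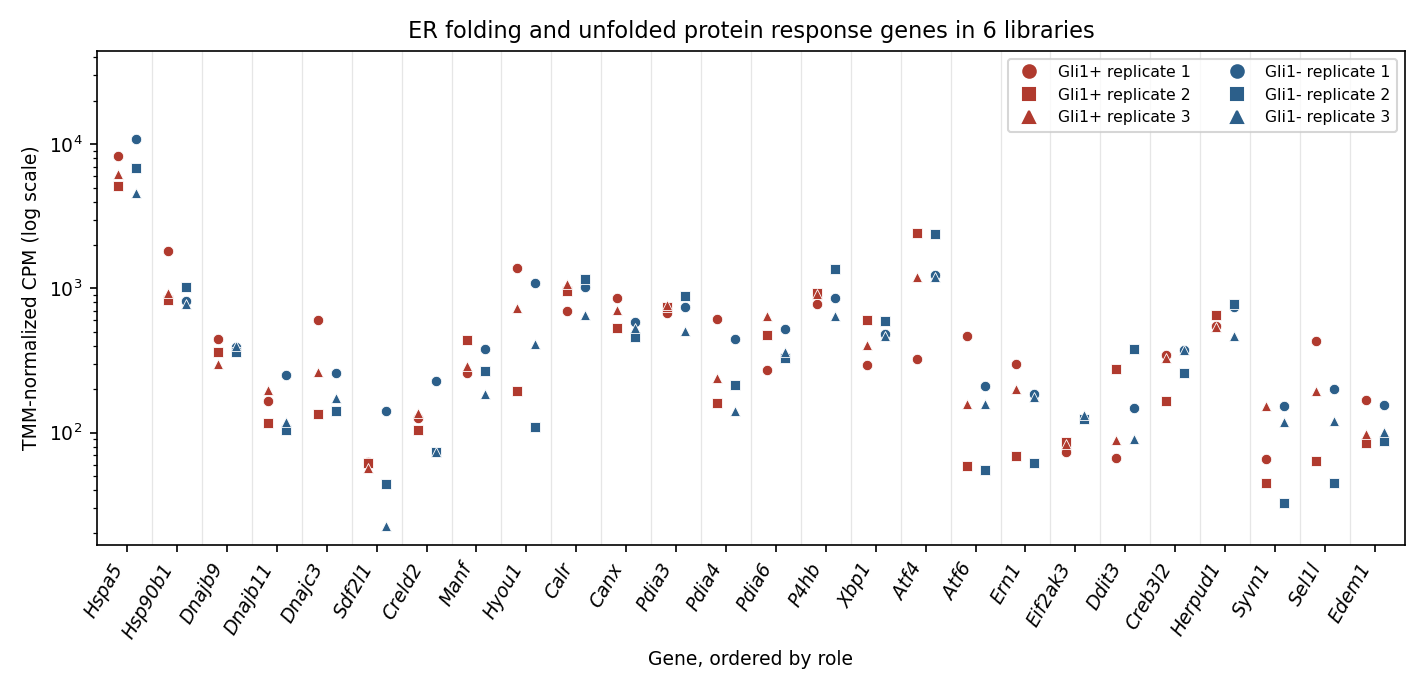
TMM-normalized CPM (vertical axis, log scale) of the 26 ER genes, ordered by role, in the 3 Gli1+ libraries (red) and the 3 Gli1- libraries (blue), with a marker shape for each replicate number. Hspa5 lies highest, at 4601 to 10882 CPM. Eif2ak3 is the 1 gene of the 26 whose populations do not overlap. Of all genes, 4.45% were lower in Gli1+ without overlap and 4.04% higher. Hyou1, Sel1l, Atf6 and Ern1 are lowest in replicate 2 of both populations.

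Hspa5's partners differed among themselves. Hyou1 (chr9:44379490-44392369), an ER HSP110 that recharges BiP, was at 1381, 195 and 729 CPM in Gli1+ and 1088, 110 and 413 CPM in Gli1- libraries. It varied 12.6-fold between libraries, most widely of the ER genes, and was higher in the Gli1+ library of each pair. The log2FC was 0.52 (SE 0.92, edgeR unadjusted p = 0.588; exact permutation p = 0.6) and 0.66 with the block (SE 0.26, unadjusted p = 0.0473, adjusted p = 0.575), -0.25 without Gli1+ replicate 1 and 1.56 without Gli1- replicate 1. Hsp90b1, the ER HSP90 known as GRP94, was at 1822, 828 and 933 CPM against 818, 1020 and 779 CPM (log2FC 0.45, SE 0.50, and -0.01 without Gli1+ replicate 1). Dnajc3, an HSP40 that also restrains PERK, was at 603, 135 and 262 CPM against 260, 140 and 173 CPM (log2FC 0.80, SE 0.60, and 0.03 without Gli1+ replicate 1).

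The other cochaperones lay close to equal. Dnajb9 and Dnajb11, the HSP40 proteins ERdj4 and ERdj3, had log2FC values of -0.06 (SE 0.40) and 0.00 (SE 0.48). Manf, a secreted partner of BiP, had a log2FC of 0.24 (SE 0.46). Sdf2l1 was at 57.1 to 62.8 CPM in Gli1+ and at 140, 44.3 and 22.5 CPM in Gli1- libraries, and Creld2 at 105 to 136 CPM in Gli1+ and at 227, 73.3 and 73.7 CPM in Gli1- libraries. For both the Gli1- population spanned the Gli1+ values because of Gli1- replicate 1, without which their log2FC values moved from -0.18 and -0.02 to 0.86 and 0.74.

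The lectin chaperones calreticulin and calnexin hold glycoproteins during folding. Calr (chr8:84841850-84846934) was at 694, 952 and 1075 CPM in Gli1+ and 1024, 1170 and 654 CPM in Gli1- libraries, with a log2FC of -0.07 (SE 0.47, edgeR unadjusted p = 0.892; exact permutation p = 0.8) and -0.05 with the block (SE 0.34, unadjusted p = 0.887, adjusted p = 0.969). Canx was at 858, 527 and 703 CPM against 580, 462 and 532 CPM, higher in each pair with overlapping populations (log2FC 0.41, SE 0.43). The protein disulfide isomerases form and rearrange disulfide bonds, and P4hb is also a subunit of the collagen prolyl hydroxylase. The log2FC was 0.03 for Pdia3, 0.34 for Pdia4, 0.21 for Pdia6 and -0.12 for P4hb, with standard errors of 0.44 to 0.65, and that of Pdia4 turned to -0.44 on leaving out Gli1+ replicate 1 and was 0.93 on leaving out Gli1- replicate 1. Pdia3 was at 680 to 765 CPM in the Gli1+ libraries, inside the Gli1- range of 504 to 889 CPM.

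Among the sensors, Eif2ak3 (chr6:70844515-70905245) encodes PERK, which slows translation by phosphorylating eIF2-alpha. It was at 73.3, 85.8 and 83.3 CPM in Gli1+ and 124, 125 and 133 CPM in Gli1- libraries (80.8 ± 6.64 and 127 ± 4.98 CPM, mean ± SD, n = 3). The populations did not overlap, as in 4.45% of all genes with Gli1+ lower and 4.04% with Gli1+ higher. The Gli1- level was 1.69, 1.46 and 1.60 times the Gli1+ level in pairs 1, 2 and 3. The log2FC was -0.66 (SE 0.35, edgeR unadjusted p = 0.0936; exact permutation p = 0.1) and -0.66 with the block (SE 0.24, unadjusted p = 0.0368, adjusted p = 0.546), and lay between -0.70 and -0.61 with any library left out. The difference was below the 2-fold limit used for calls. Ern1 was at 301, 69.3 and 202 CPM against 185, 61.5 and 177 CPM, higher in each pair (log2FC 0.43, SE 0.64). Atf6 was at 466, 58.3 and 157 CPM against 211, 55.2 and 158 CPM (log2FC 0.68, SE 0.79, and -0.42 without Gli1+ replicate 1).

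The transcription factors of the response did not pass either test. Atf4 (chr15:80255184-80257541), which is translated when eIF2-alpha is phosphorylated, was at 326, 2435 and 1192 CPM in Gli1+ and 1235, 2382 and 1199 CPM in Gli1- libraries. The low value was that of Gli1+ replicate 1, and the Gli1- level was 0.978 and 1.01 times the Gli1+ level in pairs 2 and 3. The log2FC was -0.28 (SE 0.74, edgeR unadjusted p = 0.709; exact permutation p = 0.8), -0.61 with the block (SE 0.48, unadjusted p = 0.251, adjusted p = 0.751) and 0.16 without Gli1+ replicate 1. Ddit3, the factor CHOP that ATF4 raises under lasting stress, was at 66.4, 278 and 88.3 CPM against 148, 379 and 90.7 CPM, lower in each pair (log2FC -0.51, SE 0.72). Leaving out Gli1+ replicate 2 gave a log2FC of -1.41, and leaving out Gli1- replicate 2 turned it to 0.24. The overlapping gene Mars on the opposite strand held 57.2% as many counts. Xbp1, whose messenger is spliced by IRE1, had a log2FC of -0.25 (SE 0.45), and splicing cannot be read from counts per gene. Creb3l2, an ER-anchored factor known from cartilage secretion, was at 347, 166 and 331 CPM against 374, 258 and 375 CPM, lower in each pair (log2FC -0.26, SE 0.45).

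In ER-associated degradation, Sel1l (chr12:91806043-91849157) had the largest positive value of the 40 genes. It encodes the adaptor of the ubiquitin ligase HRD1, and was at 430, 63.6 and 193 CPM in Gli1+ and 199, 44.8 and 121 CPM in Gli1- libraries. It was higher in each pair. Replicate 2 was lowest in both populations, which overlapped, and Gli1+ replicate 3 was also below Gli1- replicate 1. The log2FC was 0.91 (SE 0.77, edgeR unadjusted p = 0.268; exact permutation p = 0.5) and 0.76 with the block (SE 0.26, unadjusted p = 0.0305, adjusted p = 0.531), 0.05 without Gli1+ replicate 1 and 1.47 without Gli1- replicate 1. Its ligase Syvn1 was at 65.7, 44.6 and 154 CPM against 154, 32.7 and 119 CPM (log2FC -0.21, SE 0.67). Herpud1 had a log2FC of -0.19 (SE 0.43) and Edem1 of 0.02 (SE 0.44). Of the 26 ER genes 3 were lower in all 3 pairs (11.5%, against 19.8% of all genes) and 4 were higher (15.4%, against 17.6% of all genes).

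How the spread of a gene divides shows the contrast between both groups of genes. The sum of squares of log2 CPM over the 6 libraries was split into parts for the replicate number, for the population and for the rest. Over the heat shock genes the median part was 44.3% for the replicate number, 29.2% for the population and 14.3% for the rest. Over the ER genes these medians were 64.6%, 4.46% and 21.1%, and over all genes 62.2%, 10.4% and 17.1%. Each median was taken separately, so the parts need not add up to the whole. The population took 94.8% for Eif2ak3, 72.7% for Hsph1 and 60.8% for Bag3, against 48.2% for Hspb1. The wide differences of Hspb1 and the HSP70 pair thus came with a wide spread between replicate numbers, and the narrower ones of Eif2ak3 and Hsph1 with a small one.

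**Figure D4:**
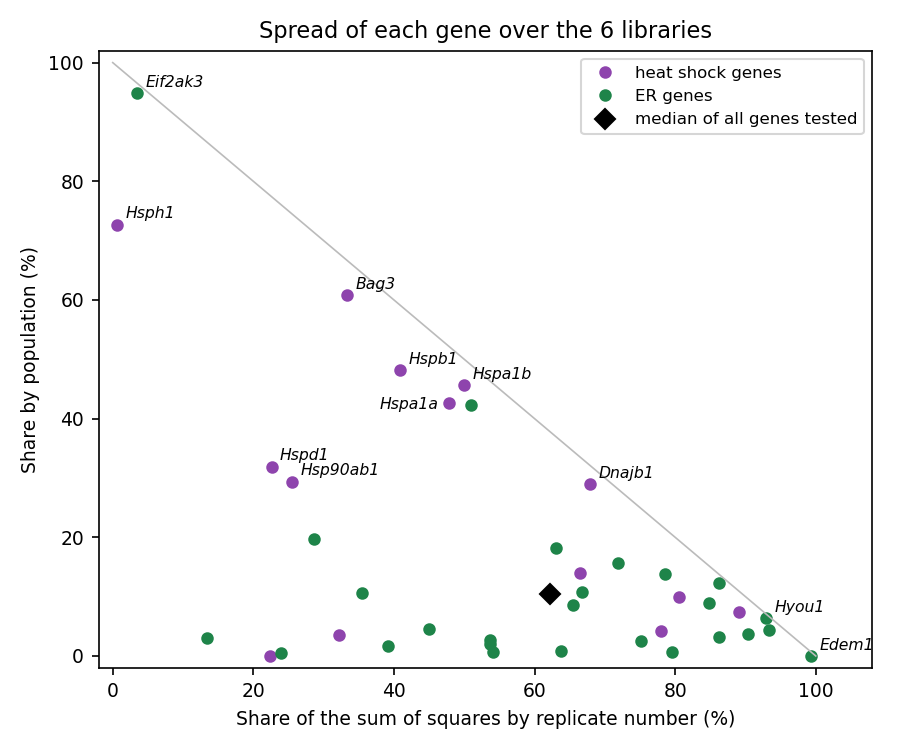
Share of each gene's sum of squares of log2 CPM over the 6 libraries taken by the replicate number (horizontal axis, %) and by the population (vertical axis, %), for heat shock genes (purple), ER genes (green) and the median of all genes tested (black diamond). The line marks where both shares add up to the whole. Eif2ak3 (94.8%) and Hsph1 (72.7%) lie highest on the population axis, and most ER genes lie near the bottom.

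The replicate pattern followed gene length. Both libraries of replicate 2 tended to be high for short members and low for long ones, with exceptions at both ends, such as the short Pdia4 (2399 bases, log2 difference -0.74) and the long Dnaja1 (8629 bases, 0.72). Hspb1, with 1031 bases of exon, was 2.52 log2 units higher in replicate 2 than in the other replicates, and Hyou1, with 7230 bases, had a log2 difference of -2.48. Across genes, which are not independent replicates and come from the same libraries, Spearman's rho between length and this difference was -0.56 for the 14 heat shock genes, -0.67 for the 26 ER genes and -0.40 for all 14801 genes. Gli1+ replicate 1 went the other way against the other Gli1+ libraries, with rho values of 0.49, 0.58 and 0.46. With the trend in length removed and the block kept, the log2FC was -2.74 for Hspb1, -2.37 for Hspa1a, -1.77 for Hspa1b, -1.13 for Dnajb1 and -1.34 for Bag3, with edgeR unadjusted p-values of 0.00137, 0.0026, 0.000846, 0.00248 and 0.00102. Sel1l and Eif2ak3 had 0.67 and -0.67 in that fit (unadjusted p = 0.0198 and 0.0207), and Hyou1 had 0.61 (unadjusted p = 0.0598).

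**Figure D5:**
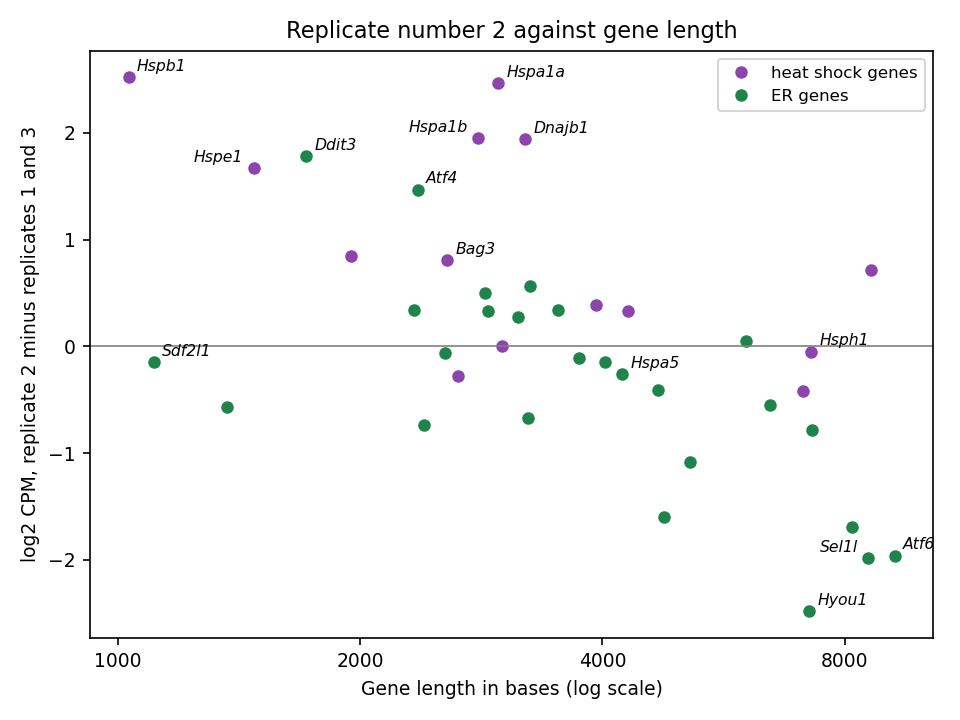
Difference in log2 CPM between replicate number 2 and the mean of numbers 1 and 3, both populations together (vertical axis), against the gene length given in the count table (horizontal axis, bases, log scale), for heat shock genes (purple) and ER genes (green). Spearman's rho over the 40 genes was -0.56, with Hspb1 at 2.52 and Hyou1 at -2.48.

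Wider lists of the same systems had medians between 0.06 and 0.22. Of 47 other cytosolic and mitochondrial chaperones, 28 had a positive log2FC and the median was 0.09, with 1 gene higher (Bag2) and 1 lower (Hspb6) at an unadjusted p under 0.05 by edgeR without the block. Bag2, a cofactor of HSP70, was at 20.1, 11.9 and 14.4 CPM in Gli1+ and 6.21, 6.83 and 6.72 CPM in Gli1- libraries, so the populations did not overlap (log2FC 1.23, SE 0.46, edgeR unadjusted p = 0.0265, adjusted p = 0.9999). Hspa9, the mitochondrial HSP70, had a log2FC of 0.23 (SE 0.43). Of 47 other ER folding, translocation and degradation genes, 33 had a positive log2FC, the median was 0.22, and 0 reached an unadjusted p under 0.05. Its most abundant genes were Serpinh1, the collagen chaperone HSP47 (log2FC -0.17, SE 0.55), Ssr3 of the translocon (0.24, SE 0.42) and Serp1 (0.45, SE 0.46). Of 24 other genes of the unfolded protein and integrated stress responses 13 were positive, with a median of 0.06, and 0 reached an unadjusted p under 0.05. Ppp1r15a, which restores translation, was at 223, 1284 and 747 CPM against 1002, 2033 and 1035 CPM (log2FC -0.85, SE 0.69), Atf3 had a log2FC of -1.37 (SE 1.01) and Nars of 0.24 (SE 0.43). DESeq2 with the block called 3, 0 and 1 genes of these 3 lists lower, the 1 being Atf3, and 0 higher.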

How the data were processed

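The authors deposited 1 table of counts, whole reads per gene in each of 6 libraries, not normalized or pooled. The submitters' processing notes name HISAT2 2.0.5, featureCounts 1.5.0-p3 and the build mm10, and sequencing and data analysis were done by Novogene. The annotation release, use of strand and treatment of reads with several positions are not given in the sources used here. Of the 40 genes 18 overlap another gene of the table, and for 7 of them the overlapping genes held over 1% as many counts, so reads may be shared. Coordinates are those of the table and equal GENCODE M21 (GRCm38) for all 40. The other column used, gene length, was also deposited by the authors, and the number of per-library columns not used was 0.

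Genes were filtered with filterByExpr (minimum count of 10), libraries scaled by TMM, and Gli1+ compared with Gli1- by edgeR's quasi-likelihood test (edgeR 4.0.16, R 4.3.3), with Benjamini-Hochberg adjustment over all 14801 genes. Calls needed a |log2FC| over 1 and an adjusted p under 0.05, the limits of the study's Methods. CPM values are TMM-normalized. TPM used the deposited gene length. Sums of squares used log2(CPM + 0.5). Each library's deviation from its population mean was correlated with that of the library of the same number, at 0.223, 0.72 and 0.471 over 14801 genes. Of the combinations of unlike number, Gli1+ 1 with Gli1- 3 gave 0.274 and Gli1+ 3 with Gli1- 1 gave 0.107. The rest gave -0.616 to -0.318. The values thus set replicate 2 apart but do not settle how numbers 1 and 3 pair. All 3 same-number values were over 0.1 and the study drew both populations from the same mice, so the libraries were treated as paired by number. Counts by pair and the block fits rest on this choice. The replicate block entered an alternative fit. The labels do not say that libraries came from separate mice, the study speaks of biological replicates, and p-values measure the spread between these libraries.

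The alternatives were DESeq2 1.42.0, limma-voom (limma 3.58.1), other scalings and filters, the block, and libraries left out, 18 in all. A further 7 (length and GC trends removed with a lowess span of 0.3, limma-voom and left-out replicates with the block) were chosen after seeing the data. Tests were run on simulated counts that held no replicate effect, so the block fits were not checked under such an effect. The pass limits applied only to a spread smaller than the real one. The members and all lists were chosen with earlier results of these data known. All 40 genes are named. Full statistics go to members whose libraries did not overlap, with an unadjusted p under 0.05 with or without the block, or among the 3 highest by TPM in each group. Of other lists, genes with an unadjusted p under 0.05 or else the most abundant are named, with exceptions stated. Promoters are from RefSeq, GRCm38.p6. Figures were drawn with matplotlib 3.10.9.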

Additional observations from a re-analysis of the deposited data

How the results depend on the processing

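Over the 25 alternatives the sign of the log2FC was the same as in the fit reported first for 13 of the 40 genes. These were Hspa1b, Hspb1, Hspa1a, Hsph1, Hspd1, Dnajb1, Bag3 and Dnaja1 among the heat shock genes, and Canx, Xbp1, Dnajc3, Sel1l and Eif2ak3 among the ER genes. Of the values of single genes 982 moved by less than 1 SD between libraries and 18 by more. Calls depended on the tool together with the replicate block. The count of heat shock genes called was 0 in edgeR and 5 in DESeq2 with the block, and 4, 3 and 2 with both libraries of replicate 1, 2 and 3 left out of that fit. DESeq2 with the block called 414 genes in all, DESeq2 without it 27, edgeR with no filter on low counts 267, and edgeR with or without the block 0.

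The count of heat shock genes at an unadjusted p under 0.05, 1 in edgeR, was 2 in DESeq2, 2 in limma-voom, 3 with no filter and 2 with the length trend removed. With the replicate block it was 5 in edgeR, 5 in DESeq2, 5 in limma-voom, 6 with the length trend removed, 6 with the GC trend removed, and 7, 5 and 5 in DESeq2 without replicate 1, 2 or 3. Of all genes tested, 3.19% to 4.84% reached this limit in the fits named here without the block, 8.61% to 11.7% in those with the block, and 17.3%, 7.58% and 7.55% in the last 3. With libraries left out and no block it ran from 0 to 5. It was 5 without Gli1+ replicate 2 (8.04% of all genes) or without both libraries of replicate 2 (5.19%), and 0 in each other case (1.04% to 3.2%). The same count for ER genes, 0 in edgeR, was 3 with the block in edgeR, 3 in DESeq2, 3 in limma-voom, 2 with the length trend removed, 3 with the GC trend removed and 7 in DESeq2 with the block without replicate 1. In that last fit 6 of the 7 were higher in Gli1+ cells, where 1151 of 15331 genes were higher at this limit. There 5 ER genes had an adjusted p under 0.05, as 1183 of all genes did, and 0 ER genes were called. The median log2FC of the heat shock genes ran from -0.69 without Gli1+ replicate 2 to -0.20 without Gli1- replicate 2. That of the ER genes ran from -0.24 without both libraries of replicate 3 to 0.36 without Gli1- replicate 1. The cause of these shifts was not tested, beyond the fewer libraries in some fits. With 3 libraries of each population, no exact permutation p could fall below 0.1.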
